A study of Frankliniella occidentalis and Frankliniella intonsa with 9 samples.

Results

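Fruitless and Transformer-2 are regulators of insect sex determination, and their transcripts were examined in the antennae of adult thrips aged 1 day. RNA was sequenced in 9 libraries. The western flower thrips Frankliniella occidentalis gave 3 libraries of females and 3 of males, and the related species Frankliniella intonsa gave 3 libraries of females. No strain, host or treatment is given in the labels for any group, and they do not say whether a replicate is a separate pool of insects, so the variation behind each p-value is that between libraries and may be technical. Of 48889 assembled genes in 1 assembly shared by both species, 8 were chosen by annotation text that names a sex determination protein with an animal as the matched organism. The wording Fruitless was found in 5 genes and Transformer-2 in the other 3. No gene of the table carried the wording doublesex, sex-lethal, female-specific protein transformer, female lethal (written with a space) or intersex. The table holds only genes that reached at least 5.01 TPM (a level corrected for transcript length and expressed relative to the whole library) in at least 1 library, so a missing name says nothing about genes below that level.

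In Drosophila, the X chromosome dose sets whether the RNA-binding protein Sex-lethal is made, and Sex-lethal controls the splicing of transformer. Transformer acts with its partner Transformer-2, an RNA-binding protein, on the splicing of doublesex and fruitless, which encode transcription factors. The male form of Fruitless is made in a set of neurons that includes olfactory neurons of the antenna and is needed for courtship. How this cascade runs in thrips was not measured here. Thrips are haplodiploid, with males that develop from unfertilized eggs. In Drosophila the sexes differ in how fruitless transcripts are spliced, and each value in the table is a single level per assembled gene, so splice forms within a gene could not be compared.

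The antennal identity of the F. occidentalis libraries was checked with the odorant receptor coreceptor, the common subunit of insect odorant receptors. The gene TRINITY_DN45794_c1_g8, which matched it, was at 5.87, 10.43 and 10.45 TPM in F. occidentalis females 1, 2 and 3 and at 6.45, 15.32 and 9.98 TPM in males 1, 2 and 3. In F. intonsa it was at 0.08, 15.73 and 0 TPM in libraries 1, 2 and 3. Of 15 genes on the antennal neuron marker list, 10 were above 0 in F. occidentalis and 11 in F. intonsa. Their summed level ran from 62.7 to 102.3 TPM in F. occidentalis females and from 109.04 to 210.74 TPM in males. In F. intonsa libraries 1, 2 and 3 it was 3.57, 108.91 and 0 TPM. Between 23.2% and 29.1% of each F. occidentalis library lay on genes with no database match, against 84.9%, 44.3% and 92.2% in F. intonsa libraries 1, 2 and 3. F. intonsa libraries 1 and 3 stood apart in these measures, so the species results are also given with library 2 alone. The fat body markers were chosen by the names vitellogenin and hexamerin (62 genes, 51 above 0 in F. occidentalis). Their sum ran from 6664 to 12465 TPM in F. occidentalis females and from 86.9 to 155.79 TPM in males. Whether this sum follows the amount of fat body tissue was not tested. Taken singly, the coreceptor gene TRINITY_DN45794_c1_g8 overlapped between the sexes. So did TRINITY_DN43885_c0_g4, another coreceptor match, at 3.29 to 6.19 TPM in females and 3.27 to 7.98 TPM in males. In each F. occidentalis library, most of the neuron marker sum lay on list genes other than these coreceptor matches. Those genes are not named here, and their part in the sum's difference between the sexes was not tested. Neither the neuron nor the fat body sums overlapped between the sexes. Summed muscle markers (33 genes) did not overlap either, from 11871 to 15901 TPM in females and from 7409 to 11312 TPM in males. Markers of sperm and testis (15 genes) summed to 48.66 to 55.43 TPM in females and 56.68 to 86.79 TPM in males, and the part of all these markers in the results below was not tested. Markers of ovary and of eye overlapped. The eye markers were 40 genes chosen by the names rhodopsin, arrestin and opsin. They summed to 2677 to 3807 TPM in females and to 1417 to 3503 TPM in males. In each F. occidentalis library this was above the neuron marker sum. Whether the eye marker sum follows the amount of eye tissue was not tested. In bulk tissue, fewer cells of a type and less RNA per cell cannot be told apart.

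Fruitless was represented by 5 genes from a pair of assembly components, groups of contigs that the assembler linked by shared sequence. Fruitless belongs to the BTB zinc finger family, whose BTB domain joins proteins into dimers. Component DN40595_c0 held 3 of the 5, each annotated with the Fruitless protein of the termite Zootermopsis nevadensis. They were TRINITY_DN40595_c0_g3 (1653 bases, BTB domain), TRINITY_DN40595_c0_g7 (529 bases, BTB domain) and TRINITY_DN40595_c0_g9 (1297 bases). The first and second also matched Drosophila Fruitless in Swiss-Prot. The last had a homeobox as its annotated domain and no Swiss-Prot match, so its name rests on the termite match alone. Component DN45111_c0 held the other pair. TRINITY_DN45111_c0_g4 (2453 bases, BTB domain) matched Drosophila Fruitless in Swiss-Prot but a zinc finger and BTB domain protein in its other annotation. TRINITY_DN45111_c0_g2 (1591 bases) matched fruitless of the monarch butterfly, with no domain and no Swiss-Prot entry. Whether the 5 come from as many loci in the genome was not tested.

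Summed over the 5 genes, Fruitless was at 20.74, 33.12 and 27.59 TPM in F. occidentalis females 1, 2 and 3 and at 46.11, 30.47 and 18.21 TPM in males 1, 2 and 3. The males held both the highest and the lowest of the 6 values, so the sexes overlapped. Females averaged 27.2 ± 6.20 TPM and males 31.6 ± 13.98 TPM (SD, n = 3 per sex). The log2 difference of summed TPM + 1, male minus female, was 0.14 (p = 0.9, two-sided exact permutation test, which cannot go below 0.1 with 3 libraries against 3). When the sums took the place of single genes in a limma-trend fit across all genes, the 95% confidence interval of that difference ran from −0.71 to 0.99, and the adjusted p was 0.910. The interval held values on both sides of 0, and without male library 1 the difference was −0.17, so no direction could be given.

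**Figure D1:**
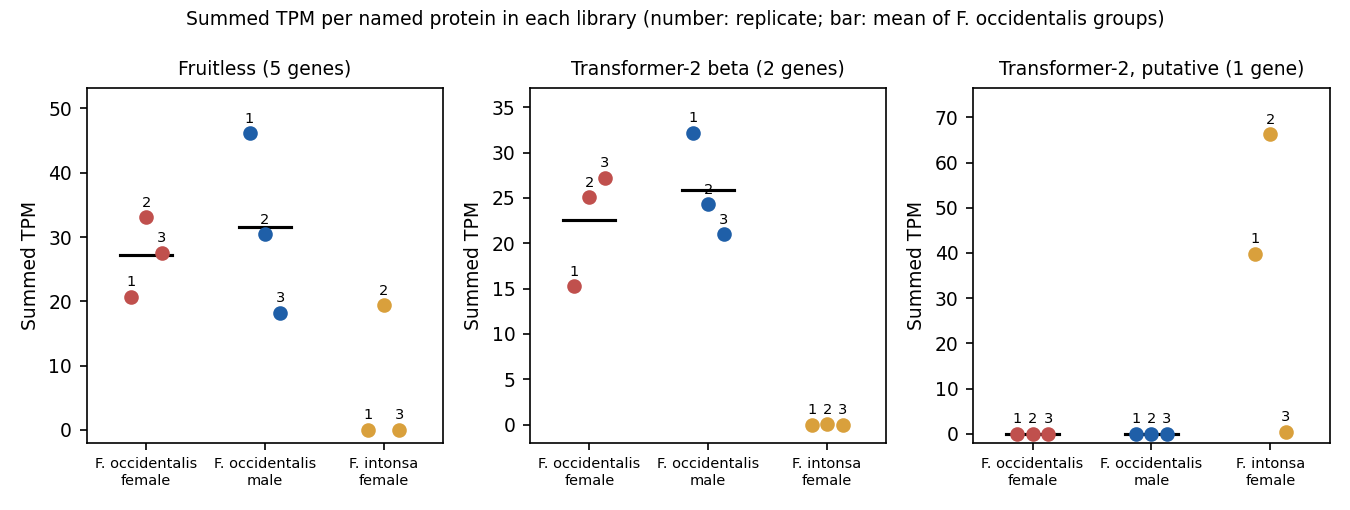
Summed TPM of the genes annotated as Fruitless, as Transformer-2 beta and as a putative Transformer-2 (y axis) in each library of the 3 groups (x axis). Points are libraries with their replicate number, and bars are the means of the F. occidentalis groups. The sexes overlap for Fruitless and Transformer-2 beta, and the putative Transformer-2 gene is above 0 in F. intonsa only.

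The gene of highest level in the Fruitless group was TRINITY_DN40595_c0_g3. It was at 6.54, 7.58 and 8.87 TPM in females 1, 2 and 3 and at 18.49, 8.90 and 4.96 TPM in males 1, 2 and 3. Its spread in males came mostly from male library 1, which was above all females, while male library 3 was below them. Its log2 fold change of TPM + 1 was 0.28 ± 0.45 (SE, n = 3 per sex; limma-trend adjusted p = 0.827), and without male library 1 it was −0.16. TRINITY_DN40595_c0_g9 was at 4.50, 7.10 and 6.62 TPM in females and at 10.88, 6.48 and 3.79 TPM in males, in the same library order, with male library 1 again highest and male library 3 lowest. TRINITY_DN40595_c0_g7 was at 3.01, 7 and 5.38 TPM in females and at 5.68, 4.01 and 1.88 TPM in males. It was the single member with a negative log2 fold change, at −0.36 ± 0.45 (SE, n = 3 per sex; limma-trend adjusted p = 0.773).

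The other component gave flatter values in males but not in females. TRINITY_DN45111_c0_g2 was at 3.86, 6.44 and 3.31 TPM in females and at 5.20, 5.59 and 3.76 TPM in males 1, 2 and 3. TRINITY_DN45111_c0_g4 was at 2.83, 5 and 3.41 TPM in females and at 5.86, 5.49 and 3.82 TPM in males. For both genes the sexes overlapped. The component DN40595_c0 held 65.5% to 75.6% of the Fruitless sum in females and 58.4% to 76.0% in males, also overlapping (two-sided exact permutation test, p = 0.6).

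**Figure D2:**
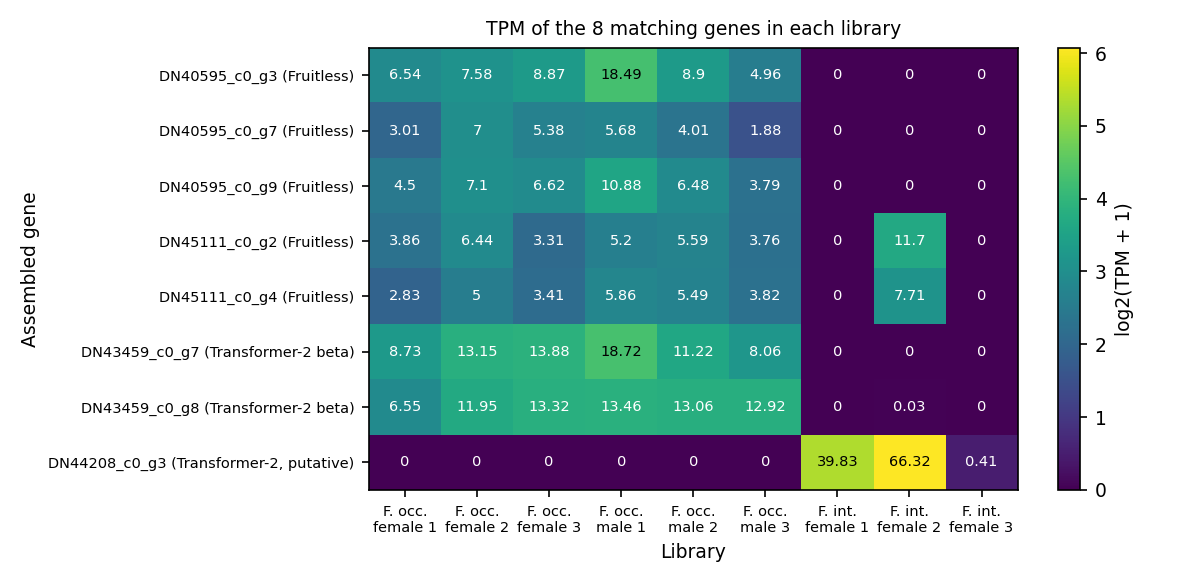
TPM of the 8 genes (y axis, with the named protein) in each of the 9 libraries (x axis), coloured by log2(TPM + 1). Male library 1 holds the highest F. occidentalis value of 5 of the 7 genes above 0 in that species, and the F. intonsa columns are at 0 for 4 of these 7 genes.

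Transformer-2, the splicing partner of Transformer in Drosophila, is made in both sexes there. It was represented by TRINITY_DN43459_c0_g7 (1629 bases) and TRINITY_DN43459_c0_g8 (1032 bases), which both carry an RNA recognition motif and matched Transformer-2 beta of cattle in Swiss-Prot and of Zootermopsis nevadensis in the other annotation. Their sum was at 15.28, 25.10 and 27.20 TPM in F. occidentalis females 1, 2 and 3 and at 32.18, 24.28 and 20.98 TPM in males 1, 2 and 3. Female library 1 was lowest and male library 1 highest, and the sexes overlapped. Females averaged 22.5 ± 6.36 TPM and males 25.8 ± 5.76 TPM (SD, n = 3 per sex), a log2 difference of 0.21 (two-sided exact permutation test, p = 0.7). In the limma-trend fit with sums in place of genes, its 95% confidence interval ran from −0.53 to 0.94 (adjusted p = 0.827).

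The pair of Transformer-2 beta genes differed in spread. TRINITY_DN43459_c0_g8 was at 13.46, 13.06 and 12.92 TPM in males 1, 2 and 3, and at 6.55, 11.95 and 13.32 TPM in females. The male values lay close together near the highest female values, and female library 1 was well below the rest. TRINITY_DN43459_c0_g7 was at 18.72, 11.22 and 8.06 TPM in males and at 8.73, 13.15 and 13.88 TPM in females, with the same high male library 1 and low male library 3 as the leading Fruitless gene. Its log2 fold change was 0.03 ± 0.38 (SE, n = 3 per sex; limma-trend adjusted p = 0.983), and that of TRINITY_DN43459_c0_g8 was 0.34 ± 0.34 (adjusted p = 0.702).

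Over the sex comparison, 7 of the 8 genes passed the filter of at least 1 TPM in at least 3 libraries, and 0 of the 7 passed an adjusted p of 0.05 in limma-trend. In that fit 415 of 22015 tested genes passed, which is 1.89%. The count over all genes ran from 76 to 273 with 1 library left out, was 116 without the filter and was 502 with all 9 libraries in 1 fit. None of the 7 had an unadjusted p under 0.05, against 15.5% of all tested genes. None had sexes that did not overlap, against 20.1% of all tested genes. The 7 log2 fold changes ran from −0.36 to 0.36 with a median of 0.11, beside a median of 0.19 over all tested genes, and 6 of the 7 were above 0. Quantile normalization moved the median of all genes from 0.19 to −0.02 and turned 3 of these 6 below 0, and their log2 fold changes had been smaller than that common shift. The eighth gene, described with F. intonsa below, was at 0 in all 6 libraries and was not tested.

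**Figure D3:**
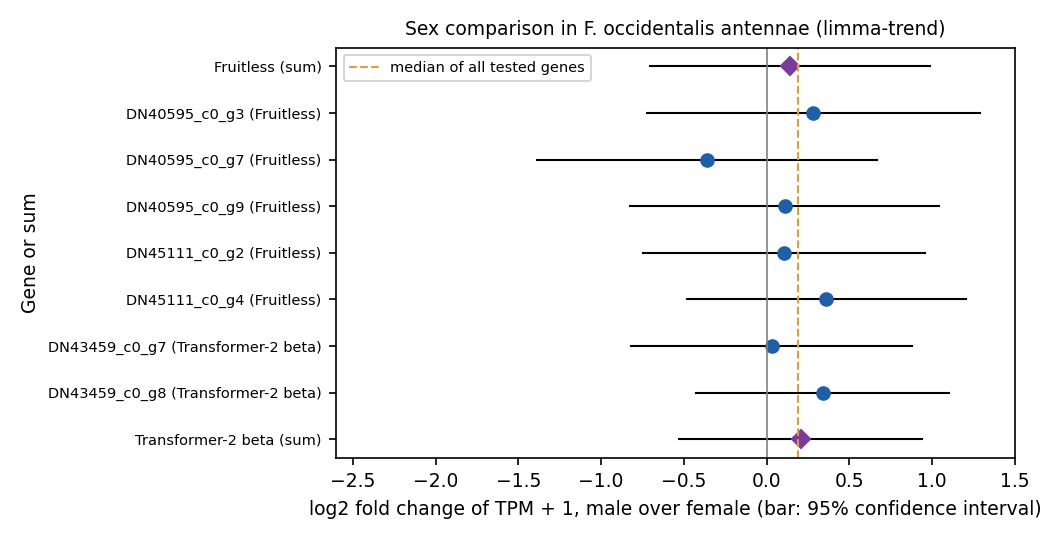
Log2 fold change of TPM + 1, male over female (x axis), of the 7 tested genes (circles) and of the summed proteins (diamonds) in F. occidentalis, with 95% confidence intervals from limma-trend. All intervals include 0, and the dashed line is the median of all tested genes at 0.19.

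Male library 1 held the highest F. occidentalis value for 5 of the 7 genes, and male library 3 the lowest for 4. Over all genes tested between the sexes, male library 1 was highest in 25.2% and male library 3 lowest in 24.9%. The part of this library pattern in the members' values was not tested. By mean level over the 6 F. occidentalis libraries, the order was TRINITY_DN43459_c0_g7 (12.3 ± 3.91 TPM, SD, n = 6), TRINITY_DN43459_c0_g8 (11.9 ± 2.66) and TRINITY_DN40595_c0_g3 (9.22 ± 4.78). They were followed by TRINITY_DN40595_c0_g9 (6.56 ± 2.49), TRINITY_DN45111_c0_g2 (4.69 ± 1.23), TRINITY_DN40595_c0_g7 (4.49 ± 1.88) and TRINITY_DN45111_c0_g4 (4.40 ± 1.22). Each pair of neighbours in this order differed by less than the larger SD of the pair. The order was the same in 6 of 6 libraries for TRINITY_DN40595_c0_g3 above TRINITY_DN40595_c0_g9, and for TRINITY_DN40595_c0_g9 above TRINITY_DN45111_c0_g2. All 7 lay near the middle of the table. The highest was above 73.2% of tested genes and the lowest above 40.8%, and the median tested gene had a mean of 5.42 TPM.

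Ratios between genes of the same component do not depend on the scaling of a library. TRINITY_DN40595_c0_g3 over TRINITY_DN40595_c0_g7, which are both BTB genes annotated as Fruitless, was 2.17, 1.08 and 1.65 in females 1, 2 and 3 and 3.26, 2.22 and 2.64 in males 1, 2 and 3. The sexes did not overlap, with an average of 1.63 ± 0.545 for females and 2.70 ± 0.521 for males (SD, n = 3 per sex). The lowest male and the highest female were close, at 2.22 and 2.17. By a two-sided exact permutation test p was 0.1, the lowest this design can reach, and it was 0.35 after Benjamini-Hochberg adjustment over the 7 ratios computed. TRINITY_DN40595_c0_g9 over TRINITY_DN40595_c0_g7 was 1.495, 1.01 and 1.23 in females and 1.92, 1.62 and 2.02 in males, in the same library order. Here too the sexes did not overlap (exact permutation p = 0.1, adjusted p = 0.35). Both ratios have TRINITY_DN40595_c0_g7 as their denominator, so they are not independent. Of 15889 ratios between tested genes of any one component, 18% had sexes that did not overlap. The other 5 ratios overlapped between the sexes, with p-values from 0.3 to 0.8 by the same exact test. Among them, the Fruitless sum over the Transformer-2 beta sum was 1.23 ± 0.188 for females and 1.19 ± 0.289 for males (SD, n = 3 per sex; exact p = 0.8).

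**Figure D4:**
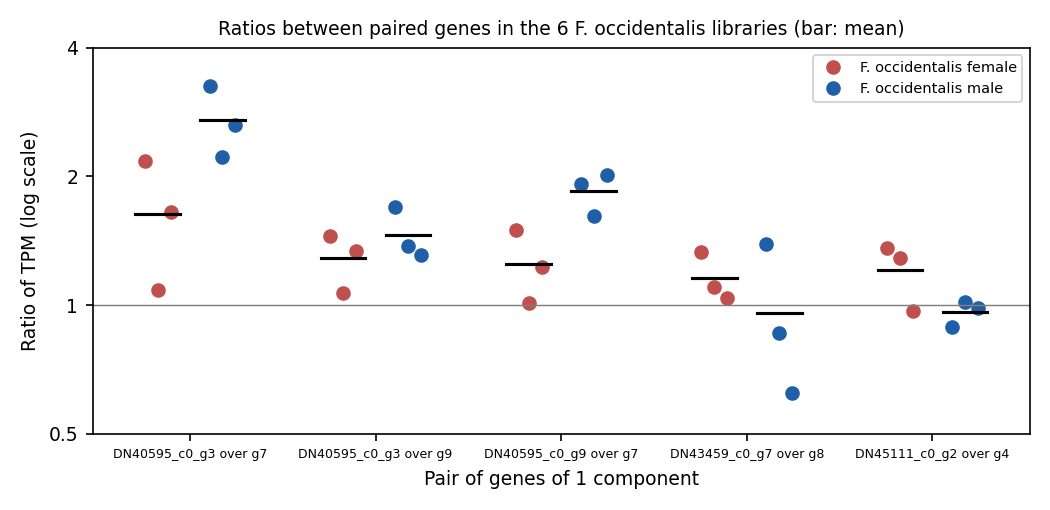
Ratio of TPM between paired genes of 1 component (y axis, log scale) in F. occidentalis females and males (points are libraries, bars are means). The sexes do not overlap for TRINITY_DN40595_c0_g3 over TRINITY_DN40595_c0_g7, from 1.08 to 2.17 in females and from 2.22 to 3.26 in males, nor for TRINITY_DN40595_c0_g9 over TRINITY_DN40595_c0_g7, and they overlap for the other 3 pairs.

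The species comparison was dominated by genes listed at 0. All 3 Fruitless genes of DN40595_c0 and TRINITY_DN43459_c0_g7 were at 0 TPM in all 3 F. intonsa libraries. TRINITY_DN43459_c0_g8 was at 0, 0.03 and 0 TPM in F. intonsa libraries 1, 2 and 3. These 5 genes, of the 7 tested, passed an adjusted p of 0.05 in limma-trend and were lower in F. intonsa, with adjusted p-values from 1.49e-05 to 0.000338. They met the filter on low values through the F. occidentalis females alone, so the filter fixed their direction. Their F. intonsa values had almost no spread, and the p-values are no separate support for a species difference. Of all 21231 genes tested between the species, 85.4% passed, 68.3% passed as lower in F. intonsa, and 55.1% had 0 TPM in each F. intonsa library. The species did not overlap for the same 5 members, against 86.6% of all tested genes in either direction and 69.2% with F. intonsa lower. With quantile normalization TRINITY_DN40595_c0_g7 no longer passed (limma-trend adjusted p = 0.145). The members' count of 5 in 7 is near this background and is not a result about them. Because the table joins both species in 1 assembly, a transcript of one species can stand under another assembled gene, which was not tested, and no fold is given for genes at 0.

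The remaining pair, TRINITY_DN45111_c0_g2 and TRINITY_DN45111_c0_g4, did not pass (limma-trend adjusted p = 0.337 and 0.275). In F. intonsa library 2 they were at 11.70 and 7.71 TPM, each above its highest F. occidentalis value of 6.44 and 5.86 TPM. In libraries 1 and 3 both were at 0. With library 2 as the only F. intonsa library, their log2 fold changes were 1.24 and 0.90, in place of −1.21 and −1.18 with all 3 (adjusted p = 0.0830 and 0.102, limma-trend, the lone library being assumed to vary like the others). This setting was added after the values were seen. The 5 genes that passed with all 3 libraries were at 0 or 0.03 TPM in library 2 as well, so it could not change their direction. Genes above 0 in F. intonsa library 2 alone made up 13.7% of all tested genes, and among the members they were these genes and TRINITY_DN43459_c0_g8. Summed, Fruitless was at 0, 19.41 and 0 TPM in F. intonsa libraries 1, 2 and 3, below the lowest F. occidentalis female at 20.74 TPM (log2 difference −3.34; p = 0.1 by the exact permutation test, its lowest value). With library 2 alone, the log2 difference of that sum from F. occidentalis females was −0.44. It was −5.53 with a pseudocount of 0.1, and quantile normalization turned it to 0.25. Transformer-2 beta summed to 0, 0.03 and 0 TPM in F. intonsa, against 15.28 TPM or more in each F. occidentalis female (exact permutation test, p = 0.1), and the log2 difference was −4.50, or −4.47 with library 2 alone. With F. intonsa at or near 0, this value is set by the scale, and it was −7.65 with a pseudocount of 0.1 and −1.41 with quantile normalization.

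The component DN40595_c0, which carries most of the Fruitless level in F. occidentalis, was not empty in F. intonsa. It held 5 further genes beside the 3 annotated as Fruitless, and 4 of these had no database match. Of the 4, TRINITY_DN40595_c0_g4 (219 bases), TRINITY_DN40595_c0_g8 (314 bases) and TRINITY_DN40595_c0_g11 (581 bases) were at 0 in all 6 F. occidentalis libraries. Their sum in F. intonsa libraries 1, 2 and 3 was 18.14, 15.60 and 0 TPM. TRINITY_DN40595_c0_g11, the longest of them, was at 4.82, 6.14 and 0 TPM there. The other unmatched gene, TRINITY_DN40595_c0_g6, was seen in F. occidentalis alone, from 1.66 to 7.42 TPM. Since these genes have no annotation, they were not counted as Fruitless, and their likeness to it was not tested. A shared component does not give a shared identity. DN43459_c0, with the Transformer-2 beta genes, also held matches to an NADH dehydrogenase subunit and to acyloxyacyl hydrolase. Genes with no match held 84.9% and 44.3% of all TPM in F. intonsa libraries 1 and 2.

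**Figure D5:**
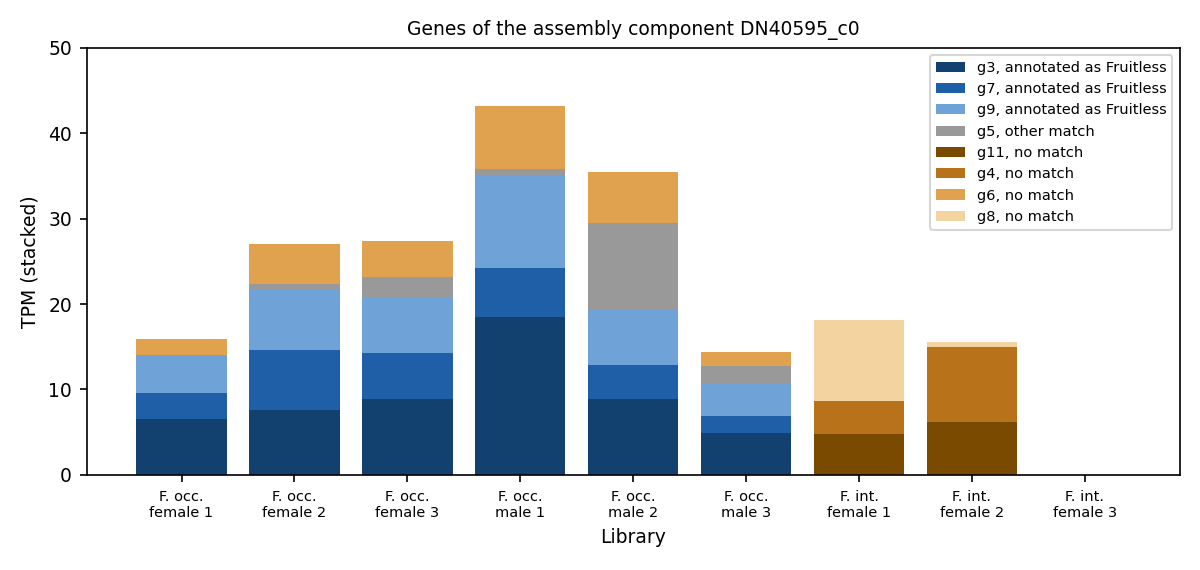
Stacked TPM (y axis) of all 8 genes of the assembly component DN40595_c0 in each library (x axis), with genes annotated as Fruitless in blue, a gene with another match in grey and genes with no match in brown. The 3 Fruitless genes are above 0 in F. occidentalis only, and F. intonsa libraries 1 and 2 hold 18.14 and 15.60 TPM on genes with no match.

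The eighth gene had the opposite distribution. TRINITY_DN44208_c0_g3 (236 bases) was annotated as a putative transformer-2 sex-determining protein of the body louse, but its Swiss-Prot match was RNA-binding protein 1 of Drosophila, a splicing factor of the SR family. It was at 39.83, 66.32 and 0.41 TPM in F. intonsa libraries 1, 2 and 3 and at 0 in all 6 F. occidentalis libraries (p = 0.1 between the species by the exact permutation test, its lowest value). It reached 1 TPM in too few libraries to enter the limma-trend fit. Another gene of the same component, TRINITY_DN44208_c0_g1 (787 bases), also matched RNA-binding protein 1. It was at 64.22, 89.24 and 0 TPM in F. intonsa and between 10.74 and 31.11 TPM in F. occidentalis. The longer match to RNA-binding protein 1 was thus seen in both species, and the 236-base gene in F. intonsa alone. A gene outside the rule, TRINITY_DN50225_c0_g1 (1541 bases), carried the text transformer-2 protein in its KEGG column, but its Swiss-Prot match was nucleolin. It was at 0.65, 0.28 and 0.75 TPM in F. occidentalis females and at 3.04, 2.34 and 5.16 TPM in males, and the sexes did not overlap. Male minus female, it differed by 1.497 ± 0.56 on the log2 scale (SE, n = 3 per sex) and did not pass (limma-trend adjusted p = 0.233).

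Partners of the cascade were described from 7 lists of annotation wording, 270 genes in all, of which 153 were tested between the sexes. None of the 153 passed the adjusted p of 0.05 in limma-trend, against 1.89% of all tested genes, and their median log2 fold change was 0.27. An unadjusted p under 0.05 was found for 1 gene each of the Sex-lethal partner, SR and dosage compensation lists, for 2 Mediator genes and for 5 genes of the Doublesex and Fruitless list, against 15.5% of all tested genes. The first list held proteins that work with Sex-lethal on splicing in Drosophila, among them the writers of the m6A mark on RNA. The list had 11 tested genes and a median of 0.12. Its gene of highest mean matched held out wings, an RNA-binding splicing regulator. That gene, TRINITY_DN44718_c0_g2, was at 18.77, 11.32 and 17.10 TPM in females and at 37.02, 25.98 and 29.27 TPM in males, and the sexes did not overlap. Its log2 fold change was 0.94 ± 0.31 (SE, n = 3 per sex; limma-trend adjusted p = 0.179), so it did not pass. A match to female-lethal(2)D, which Drosophila needs for Sex-lethal splicing, is spelled with a hyphen and stands in this list. It was TRINITY_DN40082_c0_g5 (785 bases), at 5.21 TPM in F. intonsa library 2 and 0 in the other 8 libraries.

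Among SR family splicing factors, the class of proteins with which Transformer-2 acts on splice sites, 0 of 25 tested genes passed and the median log2 fold change was 0.13. The gene of highest mean, TRINITY_DN45232_c0_g2, matched RNA-binding protein 1 and stood at 101.58, 101.96 and 105.92 TPM in females and at 153.94, 105.19 and 87.52 TPM in males. TRINITY_DN44353_c0_g3, which matched SRSF2, averaged 67.9 ± 11.2 TPM for females and 93.4 ± 29.7 TPM for males (SD, n = 3 per sex). Both were above the Transformer-2 beta sum in all 6 F. occidentalis libraries on the TPM scale.

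The Mediator complex, the transcription co-activator to which Intersex belongs in Drosophila, had 32 tested subunit genes, 0 past the threshold and a median of 0.04. Its gene of highest mean, TRINITY_DN37335_c0_g2 (subunit 10), averaged 76.8 ± 17.3 TPM for females and 69.5 ± 9.23 TPM for males (SD, n = 3 per sex). The list of nuclear factors known beside Doublesex and Fruitless in Drosophila had 73 tested genes, 0 past the threshold and a median of 0.31. Its gene of highest mean matched longitudinals lacking, a BTB zinc finger factor of axon guidance. It was TRINITY_DN46808_c3_g1, averaging 452 ± 39.5 TPM for females and 584 ± 199.7 TPM for males (SD, n = 3 per sex; log2 fold change 0.31 ± 0.31 SE, limma-trend adjusted p = 0.706).

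Smaller lists also had 0 genes past the threshold. Of the male-specific lethal complex, which raises X-linked transcription in Drosophila males, 5 genes were tested with a median of 0.53. Its gene of highest mean was TRINITY_DN39589_c1_g6, matching the acetyltransferase KAT8, at 5.03, 7.66 and 10.52 TPM in females and 17.29, 14.52 and 5.35 TPM in males. Factors that act on the Sex-lethal promoter in Drosophila (6 tested) had a median of 0.62. Their highest gene was TRINITY_DN45140_c0_g5, annotated as achaete-scute homolog 1-like but matching the mouse factor Tal1 in Swiss-Prot, at 2.65, 4.04 and 7.24 TPM in females and 12.22, 6.43 and 6.13 TPM in males. Of genes named for sexual development outside this cascade, 1 was tested, TRINITY_DN39818_c0_g4. It matched the sex peptide receptor of Drosophila, through which seminal sex peptide changes female behaviour, and averaged 3.55 ± 1.73 TPM for females and 4.88 ± 1.37 TPM for males (SD, n = 3 per sex; limma-trend adjusted p = 0.710). Between the species, 125 of 146 tested partner genes passed (85.6%), which is near the 85.4% of all tested genes and is not a result about them. Of the 125, 110 were lower in F. intonsa, and 68.3% of all tested genes passed as lower there.

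The genes whose pattern was most like the Fruitless sum were searched among 8747 tested genes with a Swiss-Prot match, by the root mean square difference of centred log2(TPM + 1) over the 6 F. occidentalis libraries. The nearest was TRINITY_DN43953_c0_g3, matching the mitochondrial carrier SLC25A51, at a difference of 0.0631. It was followed by TRINITY_DN46360_c1_g1, matching UMP-CMP kinase, at 0.0648, and TRINITY_DN42312_c1_g2, matching guanylate kinase, at 0.0703. The Transformer-2 beta sum was at 0.247 and the median gene searched at 0.489.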

How the data were processed

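Antennal RNA was measured in 9 libraries. Per the labels' protocols, oligo(dT)-primed first strands were extended by template switching, then amplified by PCR. Cutadapt, FastQC and Salmon are named in the submitters' processing notes. The sources used here name neither the assembler nor the filter on low genes. Values are TPM, as the authors deposited them per assembled gene, and the unit was read from the column totals (935518 to 987791) and the use of Salmon. TPM keeps no depth, so depth is unknown and no counting interval is given. No value column was without a sample.

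Genes with at least 1 TPM in at least 3 of the 6 libraries compared were tested on log2(TPM + 1) with limma-trend (version 3.58.1 under R 4.3.3), adjusted by Benjamini-Hochberg over all tested genes. Folds on this scale understate changes of low genes. Sums per protein were compared by exact permutation of libraries (scipy 1.17.1). All 8 members are named. From each partner list, genes past the threshold in the sex comparison and the genes of highest mean TPM in F. occidentalis were eligible for naming. The members and lists were chosen with earlier results of these data known. The fits were tested on simulated data drawn from F. occidentalis means and spreads. These lacked the zeros and the uneven libraries of F. intonsa, so they do not test the species fit under those conditions. The highest share of identical nonzero values between libraries was 0.518%.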

Additional observations from a re-analysis of the deposited data

How the results depend on the processing

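Between the sexes, 0 members and 0 partner genes passed the threshold (limma) under a pseudocount of 0.1, no filter, quantile normalization, no trend, all 9 libraries in 1 fit, the replicate block, summed proteins and each library left out. Over all genes, the 415 calls became 271 with a pseudocount of 0.1, 116 without a filter, 207 with quantile normalization, 198 without trend and 76 to 273 with a library left out. With all 9 libraries in 1 fit they rose to 502. With quantile normalization, the median of all genes moved from 0.19 to −0.02, and log2 fold changes turned negative for TRINITY_DN40595_c0_g9 (−0.12), TRINITY_DN45111_c0_g2 (−0.19), TRINITY_DN43459_c0_g7 (−0.17) and the Fruitless sum (−0.15). Leaving out 1 library gave ranges across 0 for TRINITY_DN40595_c0_g3 (−0.16 to 0.69), TRINITY_DN40595_c0_g9 (−0.22 to 0.43), TRINITY_DN45111_c0_g2 (−0.054 to 0.34), TRINITY_DN43459_c0_g7 (−0.27 to 0.29), the Fruitless sum (−0.17 to 0.48) and the Transformer-2 beta sum (−0.038 to 0.36).

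Between the species, 5 members passed, 5 to 7 with a library left out (7 without F. intonsa library 2), and 1 of the 2 proteins when summed. Quantile normalization, which gives genes tied at 0 a value above 0, cut the calls from 18127 to 11047 over all genes and from 125 to 65 over partner genes. It gave 0.84 for TRINITY_DN45111_c0_g2, 0.74 for TRINITY_DN45111_c0_g4, 0.25 for the Fruitless sum and −1.41 for the Transformer-2 beta sum, and TRINITY_DN40595_c0_g7 did not pass (limma adjusted p = 0.145). A pseudocount of 0.1 gave −5.53 for the Fruitless sum and −7.65 for the Transformer-2 beta sum. With F. intonsa library 2 alone, chosen after seeing the data, the values were 1.24 for TRINITY_DN45111_c0_g2, 0.90 for TRINITY_DN45111_c0_g4 and −0.44 for the Fruitless sum. With a library left out, the Fruitless sum ran from −4.79 to −2.62. The cause of these shifts was not tested.

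No correlation of same-numbered deviations was above 0.1, and the main fits used no pairing. With 3 libraries per group, these correlations cannot exclude that same-numbered samples shared a batch, and the labels do not say. With the replicate number as a block, 363 genes passed between the sexes and 18104 between the species, with 0 and 5 members among them. Genes below the table's minimum and splice forms within a gene were not analysed here.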
